A study of Mus musculus with 36 samples.

Results

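The lungs of A/J mice labelled 9 and 12 weeks after exposure to NNK were set against untreated A/J lungs of the same weeks, to ask which transcripts differed at these later times. NNK, 4-(methylnitrosamino)-1-(3-pyridyl)-1-butanone, is a nitrosamine of tobacco. Of the 36 arrays of the series, 8 were chosen by strain and week alone: 4 from NNK-treated A/J lungs (2 at week 9 and 2 at week 12) and 4 from untreated A/J lungs (2 at week 9 and 2 at week 12). Treated mice had received 100 mg/kg of NNK by injection in each of 4 consecutive weekly doses. From which dose the weeks are counted is not stated, so the time since the last dose is not known, and week 3 may fall within or after the dosing; early and late here mean weeks 3 and 6 and weeks 9 and 12 as labelled. The untreated mice are labelled as having had no treatment, so an effect of NNK and an effect of being injected cannot be told apart. Age, sex and genotype beyond the strain name are not given in the sources used here, nor is it stated whether arrays of one group came from separate animals, so p-values measure the spread between arrays, which may be technical. For comparison, the early arrays were 4 NNK-treated and 4 untreated A/J lungs of weeks 3 and 6, and the C3H arrays were 4 NNK-treated and 4 untreated C3H lungs of weeks 9 and 12. Lungs were collected before mature tumours had formed, as the submitters describe the design.

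NNK is converted in lung by cytochrome P450 enzymes to products that alkylate DNA. Unrepaired alkylation activates the p53 pathway, which raises genes for cell cycle arrest and survival decisions. Mice of the A/J strain carry alleles that make them prone to lung adenomas, which grow mostly from alveolar type 2 cells (the surfactant-making cells of the air sacs), whereas C3H mice are more resistant.

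Whole-lung RNA was measured on Affymetrix mouse gene arrays, and levels are given as log2(intensity + 16) after quantile normalization. The median deposited intensity of the 8 arrays ran from 285 to 327, and arrays of one group correlated at 0.9852 to 0.994. Lung markers were high throughout: Sftpc, the type 2 surfactant protein C, read 13.90 to 13.98, Scgb1a1, the club cell secretoglobin, 13.53 to 13.88, and Cdh5, the endothelial cadherin, 13.09 to 13.28. Markers of liver and fat differed between the arrays, and their part in the results was not tested. Alb, the liver's serum albumin, read 8.72 and 8.08 in the NNK lungs of week 9, against 10.19 and 11.71 in the untreated lungs of week 9, and 7.40 to 7.62 in the 4 lungs of week 12. The brown-fat gene Ucp1 read 7.10 and 8.22 at week 9 and 11.87 and 10.42 at week 12 in NNK lungs, against 6.33 and 6.96 at week 9 and 9.99 and 8.16 at week 12 in untreated lungs.

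Nearly all genes called between late NNK and untreated lungs were higher with NNK. With week as a block, limma called 46 of 14953 genes at an adjusted p under 0.05: 45 rose (0.301% of the genes tested) and 1 fell (0.00669%). The 45 rises ran from 0.339 to 1.74 in log2 change, with a median of 0.541, and 7 of the 46 reached 2-fold. Every one of the 46 had the same direction at both weeks, and in 45 of them the 4 NNK and 4 untreated arrays did not overlap. The 46 were chosen by p in these same arrays, so their separation is given as a description. Of all genes, 4.45% had every NNK array above every untreated one and 2.45% had every NNK array below. At an unadjusted p under 0.05, 1375 genes were higher (9.20%) and 690 lower (4.61%). At any p, 53.6% of all genes were higher. These shares are the background to the counts given for gene lists below. Lists and members were chosen with earlier results of these data known, so the list counts are descriptions. The number of late calls depended on single arrays: without each NNK array it was 23 and 12 (week 9) and 24 and 7 (week 12), and without each untreated array 9 and 29 (week 9) and 18 and 5 (week 12). A fit that took its spread from all 36 arrays called 268 genes, 201 higher and 67 lower, including 40 of the 46. The genes called in all 8 fits with an array left out were Retnla, Ccl8, Ccl3, Aoc1 and Muc4.

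**Figure D1:**
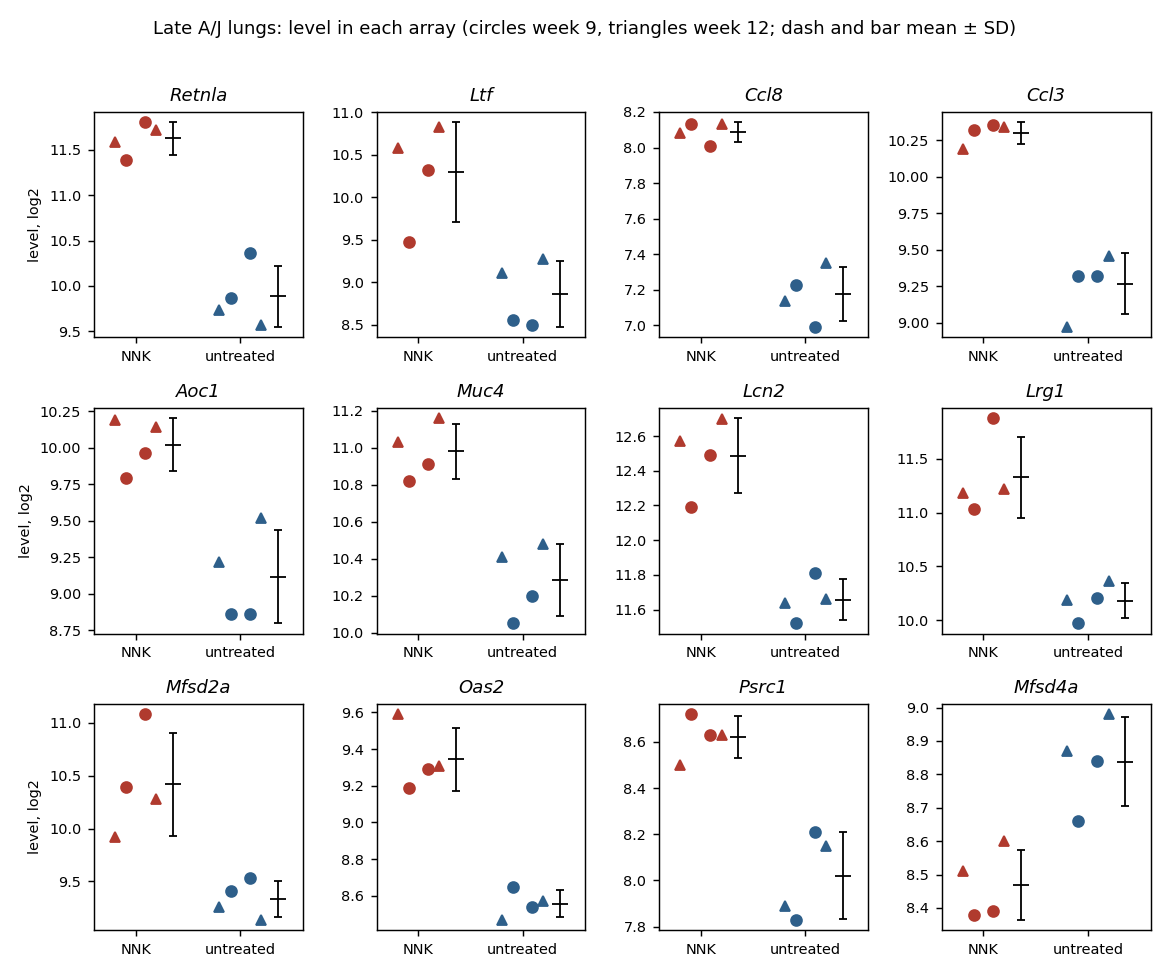
Level of 12 genes in each late A/J array, on the log2(intensity + 16) scale, with NNK lungs on the left and untreated lungs on the right of each panel; circles are week 9, triangles week 12, and the dash with its bar is the mean ± SD of 4 arrays. In every panel the 4 NNK arrays stand apart from the 4 untreated arrays: above them for 11 genes, and below them for Mfsd4a.

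The promoters of the rises were read for known motifs, and those holding a C/EBP sequence are shown because that motif was found in a larger share of the rises than of all genes. Of the 45 rises, 37 had an entry in the RefSeq promoter table (build GRCm38.p6). In the 250 bases before the start, the C/EBP letters TTGCNNAA, read on both strands, were present in 7 of the 37 (18.9%), against 7.67% of 11825 genes tested. C/EBP factors bind such sites in genes of myeloid, liver and type 2 cells. The other motifs were AP-1 (TGANTCA, 2.7% of the rises against 4.91% of all), STAT (TTCNNNGAA, 0 against 6.05%), NF-kB (GGG, then 5 free bases, then CC, 48.6% against 59.9%), the interferon element (GAAA, then 2 free bases, then GAAA, 2.7% against 2.62%) and the p53 half-site (2.7% against 6.33%). These are matches of letters, with no test and no evidence of binding. Within the 15 largest rises, 5 held the C/EBP letters, printed in capitals in the 250 bases before each start; Mt2 and Plcd4, further down the list, held them too.
Retnla, chr16:48842359-48842608, plus strand: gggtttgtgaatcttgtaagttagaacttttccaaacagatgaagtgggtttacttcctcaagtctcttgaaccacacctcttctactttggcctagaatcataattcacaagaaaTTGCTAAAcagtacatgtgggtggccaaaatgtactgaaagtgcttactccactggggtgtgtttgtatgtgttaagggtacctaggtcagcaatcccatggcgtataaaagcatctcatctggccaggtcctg
Ltf, chr9:111019042-111019291, plus strand: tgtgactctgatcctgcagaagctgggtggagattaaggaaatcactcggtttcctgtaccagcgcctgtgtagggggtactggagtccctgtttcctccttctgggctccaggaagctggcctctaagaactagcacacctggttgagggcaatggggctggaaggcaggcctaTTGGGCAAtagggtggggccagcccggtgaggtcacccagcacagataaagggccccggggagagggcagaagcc
Aoc1, chr6:48895005-48895254, plus strand, the first of 2 starts listed: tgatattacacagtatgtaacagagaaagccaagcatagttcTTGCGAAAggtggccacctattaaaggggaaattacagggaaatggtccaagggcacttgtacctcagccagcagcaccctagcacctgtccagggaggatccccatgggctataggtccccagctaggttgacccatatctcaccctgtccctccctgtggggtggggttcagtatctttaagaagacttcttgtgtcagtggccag
Lcn2, chr2:32387740-32387989, minus strand: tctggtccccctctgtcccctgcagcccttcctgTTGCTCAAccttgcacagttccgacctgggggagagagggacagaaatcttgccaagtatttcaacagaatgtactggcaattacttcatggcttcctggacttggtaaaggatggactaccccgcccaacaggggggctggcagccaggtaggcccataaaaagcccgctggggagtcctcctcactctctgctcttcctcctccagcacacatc
Ptgs2, chr1:150099781-150100030, plus strand: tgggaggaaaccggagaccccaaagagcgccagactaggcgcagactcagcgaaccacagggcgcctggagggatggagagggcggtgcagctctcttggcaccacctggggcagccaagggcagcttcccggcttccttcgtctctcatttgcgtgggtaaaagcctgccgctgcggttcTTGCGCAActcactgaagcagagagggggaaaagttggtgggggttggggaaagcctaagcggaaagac
The letters began 134 bases before the start in Retnla, 75 in Ltf, 208 in Aoc1, 216 in Lcn2 and 69 in Ptgs2. In Ltf they are the reverse complement of the motif as written.

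Secreted proteins of macrophages and airway lining led the rises. Retnla, the resistin-like protein Fizz1 of alternatively activated macrophages and airway epithelium, read 11.39 and 11.81 at week 9 and 11.59 and 11.72 at week 12 in NNK lungs, against 9.87 and 10.36 at week 9 and 9.74 and 9.57 at week 12 in untreated lungs. It rose by 1.74 ± 0.147 (SE), or 3.35-fold, with an adjusted p of 0.00326, the smallest value reached. Ccl8, a chemokine for monocytes and T cells, read 8.13 and 8.01, then 8.08 and 8.13 in NNK lungs of weeks 9 and 12, against 7.23 and 6.99, then 7.14 and 7.35 in untreated lungs. The NNK values lay close together and above all untreated ones, for a rise of 0.91 ± 0.0733 (adjusted p 0.00326). Ccl3, the macrophage inflammatory protein MIP-1 alpha, averaged 10.30 ± 0.07 in NNK lungs and 9.26 ± 0.21 in untreated lungs (SD, n = 4 each) and rose by 1.04 ± 0.095 (adjusted p 0.00355 in limma). Among 25 listed genes of alternatively activated macrophages, Retnla and Ccl8 rose and the others did not pass: Chil3, the chitinase-like protein Ym1, changed by 0.398 (adjusted p 0.21) and Mgl2, a macrophage lectin, by -0.14 (adjusted p 0.24). The list's median change was 0.152, against 0.00891 over all genes, and 17 of 25 were higher, against 53.6% of all genes.

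Of the airway secretory and antimicrobial genes, Muc4, Ltf and Lcn2 rose. Muc4, a membrane mucin of the airway surface, read 10.82 and 10.91 at week 9 and 11.03 and 11.16 at week 12 in NNK lungs, against 10.05 and 10.20 at week 9 and 10.41 and 10.48 at week 12 in untreated lungs. Both groups stood higher at week 12, and the gap between them was 0.693 ± 0.06 (adjusted p 0.00326). Ltf, the iron-binding lactoferrin of secretions and neutrophil granules, read 9.48 and 10.32, then 10.58 and 10.83 in NNK lungs of weeks 9 and 12, against 8.56 and 8.50, then 9.11 and 9.27 in untreated lungs, a rise of 1.44 ± 0.155 or 2.72-fold (adjusted p 0.00997). Lcn2, the siderophore-binding lipocalin, read 12.19 and 12.49, then 12.57 and 12.70 in NNK lungs, against 11.52 and 11.81, then 11.64 and 11.66 in untreated lungs, a rise of 0.83 ± 0.0979 (adjusted p 0.0184). These 3 were the called members of 22 listed mucous and secretory genes, of which 13 were higher. The list's median change was 0.151 over both weeks, -0.00653 at week 9 and 0.209 at week 12. Further members did not pass and went both ways: Clca3b, a chloride channel accessory protein, changed by 1.04 (adjusted p 0.0625), Bpifa1, the airway protein SPLUNC1, by 1.04 (0.135), and Reg3g, an antibacterial lectin, by -0.619 (0.12). Cxcl17, a mucosal chemokine, rose by 0.468 ± 0.0666 (adjusted p 0.0315).

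Neutrophil markers were divided. Ltf, Lcn2 and Hdc (histidine decarboxylase, which makes histamine) rose, 14 of the 18 listed genes were higher, and their median was 0.129. Hdc was also the 1 gene called of 10 listed for eosinophils, basophils and mast cells, of which 5 were higher (median 0.00387). The granule gene Ngp read 7.47, 7.30, 6.94 and 6.98 in the NNK lungs, against 7.78, 7.98, 7.59 and 7.22 in the untreated lungs, a change of -0.467 (adjusted p 0.0709), and Camp, another granule gene, changed by -0.272 (adjusted p 0.171). S100a8 and S100a9, the abundant cytosolic pair of neutrophils, changed by 0.08 and 0.04. The median change was 0.0225 for 28 T and NK cell genes and -0.0582 for 24 B and plasma cell genes, with none called in either list.

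Acute-phase and complement genes were mostly higher. Lrg1, a glycoprotein of the acute phase and of vessels, read 11.03 and 11.88, then 11.18 and 11.22 in NNK lungs of weeks 9 and 12, against 9.97 and 10.21, then 10.19 and 10.36 in untreated lungs, a rise of 1.14 ± 0.169 or 2.21-fold (adjusted p 0.0332). It was called in 2 of the 8 fits with an array left out. Lrg1 and Lcn2 were the called members of 14 acute-phase genes, 12 of which were higher, 8 of them at an unadjusted p under 0.05, with a median change of 0.271. Socs3, the inhibitor of interleukin-6 signalling, changed by 0.475 (adjusted p 0.0894) and Saa3, a serum amyloid A, by 0.657 (0.25). C6, a part of the membrane attack complex, rose by 0.534 ± 0.0828 (adjusted p 0.0392). All 18 tested complement genes were higher, 9 at an unadjusted p under 0.05, with a median of 0.192. Among them C1qa changed by 0.262 (adjusted p 0.179) and Cfb, factor B, by 0.394 (0.207). Liver transcripts ran the other way in these arrays: 8 of 9 hepatocyte genes were lower, and their mean level was 8.30 to 8.39 in NNK lungs, against 8.27 to 8.98 in untreated lungs, and their part in these lists was not tested.

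Interferon-stimulated genes were higher at both weeks, with a median change of 0.203 at week 9 and 0.252 at week 12. Oas2, which senses double-stranded RNA, read 9.19 and 9.29, then 9.59 and 9.31 in NNK lungs of weeks 9 and 12, against 8.65 and 8.54, then 8.47 and 8.57 in untreated lungs. Its rise of 0.787 ± 0.0839 (adjusted p 0.00997) was called in 7 of the 8 fits with an array left out. Of the 23 interferon response genes tested, Oas2 was called, 22 were higher and 13 were higher at an unadjusted p under 0.05. Zbp1, a nucleic acid sensor, changed by 0.649 (adjusted p 0.0911), Irf7, the master factor of the response, by 0.467 (0.1), and Oasl2 by 0.384 (0.106). The mean level of the list was 9.58 to 9.79 in NNK lungs, against 9.34 to 9.49 in untreated lungs. Genes of the interferon-gamma response had a median of 0.142 at week 9 and 0.547 at week 12, with none of 16 called: the chemokine Cxcl9 changed by 0.876 (adjusted p 0.181) and Cxcl10 by 0.445 (0.0763). The week 12 median leaned on 1 array, since the mean level of that list was 10.67 and 10.07 in the NNK lungs of week 12, against 9.75 and 9.94 in the untreated lungs of week 12.

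Alveolar type 2 genes were higher in late NNK lungs, with 1 called. Mfsd2a, a transporter of lysophosphatidylcholine, read 10.39 and 11.08, then 9.92 and 10.28 in NNK lungs of weeks 9 and 12, against 9.41 and 9.53, then 9.26 and 9.14 in untreated lungs. It rose by 1.08 ± 0.15, or 2.12-fold (adjusted p 0.0308), and was called in 3 of the 8 fits with an array left out. Of the 29 type 2 genes, 28 were higher, 18 of them at an unadjusted p under 0.05, and in 13 the NNK arrays were all above the untreated arrays. In 1 gene they were all below. Over all genes, 53.6% were higher, 9.20% were higher at that p, 4.45% had every NNK array above and 2.45% every one below. The type 2 median change was 0.167. Sftpd, surfactant protein D, changed by 0.354 (adjusted p 0.0905), Lamp3, a lamellar body membrane protein, by 0.389 (0.0955), Il33, the alarmin cytokine, by 0.589 (0.082) and Chil1, a chitinase-like protein, by 0.287 (0.0709). Sftpc, near the top of the array's range, changed by 0.0118, and Abca3, the lamellar body lipid pump, by 0.12 (adjusted p 0.394). The list's mean level was 12.11 to 12.24 in NNK lungs, against 11.90 to 12.02 in untreated lungs, without overlap. Such a gap was also seen in other lists, such as the NRF2 targets (10.70 to 10.81, against 10.52 to 10.68).

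Markers of the thin gas-exchange surface ran slightly the other way, none of them called. Of 20 alveolar type 1 genes, 5 were higher (median -0.035), and of 30 blood endothelial genes, 7 were higher (median -0.0486). Of the endothelial genes, 5 were lower at an unadjusted p under 0.05 (4.61% of all genes). The mean level of the endothelial list was 11.48 to 11.54 in NNK lungs, against 11.56 to 11.62 in untreated lungs, without overlap. In whole lung, a larger number of cells of a type and more RNA per cell cannot be told apart. Ciliated cell genes had a median of 0.138, with 28 of 33 higher and 15 of them at an unadjusted p under 0.05: Cdhr4, a cadherin-related protein, rose by 0.524 ± 0.0743 (adjusted p 0.0315), and Foxj1, the master factor of motile cilia, changed by 0.268 (0.108). Timp1, an inhibitor of matrix metalloproteinases, rose by 0.525 ± 0.0733 (adjusted p 0.0313), alone among 34 fibroblast and matrix genes with a median of 0.0837. Timp1 was called in 1 of the 8 fits with an array left out, and not in the fit of all 36 arrays (adjusted p 0.401). Its changes at weeks 3 and 6 were -1.02 and 1.35.

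Lipid synthesis genes were higher, with none called. Of 19 fatty acid synthesis genes 18 were higher, 13 of them at an unadjusted p under 0.05, with a median of 0.241. Scd1, the stearoyl-CoA desaturase, changed by 0.361 (adjusted p 0.128), Fasn, the fatty acid synthase, by 0.386 (0.192) and Elovl6, an elongase, by 0.502 (0.153). Scd1 and Fasn are also members of the type 2 list. Fat-tissue genes were also higher with NNK: 14 of 15, 6 of them at an unadjusted p under 0.05, with a median of 0.369 and none called. Their median change was 0.0361 at week 9 and 0.526 at week 12. Their mean level differed between the arrays, at 8.72 to 10.80 in NNK lungs, against 8.81 to 10.23 in untreated lungs. Among the fat genes at week 9, Ucp1 changed by 1.01, Cox8b by 0.47 and Lipe by -0.432. The fatty acid list had a median of 0.231 at week 9 and 0.254 at week 12, but its members differed between the weeks. Fasn changed by 0.266 at week 9 and 0.507 at week 12, and Scd1 by 0.469 and 0.254. The mean level of the fatty acid list overlapped, at 10.86 to 11.46 in NNK lungs, against 10.73 to 11.22 in untreated lungs. Dgat2, a triglyceride synthesis enzyme, is in both the fat and the fatty acid list, and the part of fat tissue was not tested. Of 18 cholesterol synthesis genes 17 were higher (median 0.173), among them Sqle, the squalene epoxidase, at 0.311 (adjusted p 0.117). Apoc1, a lipoprotein component, rose by 0.501 ± 0.0654 (adjusted p 0.0248).

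**Figure D2:**
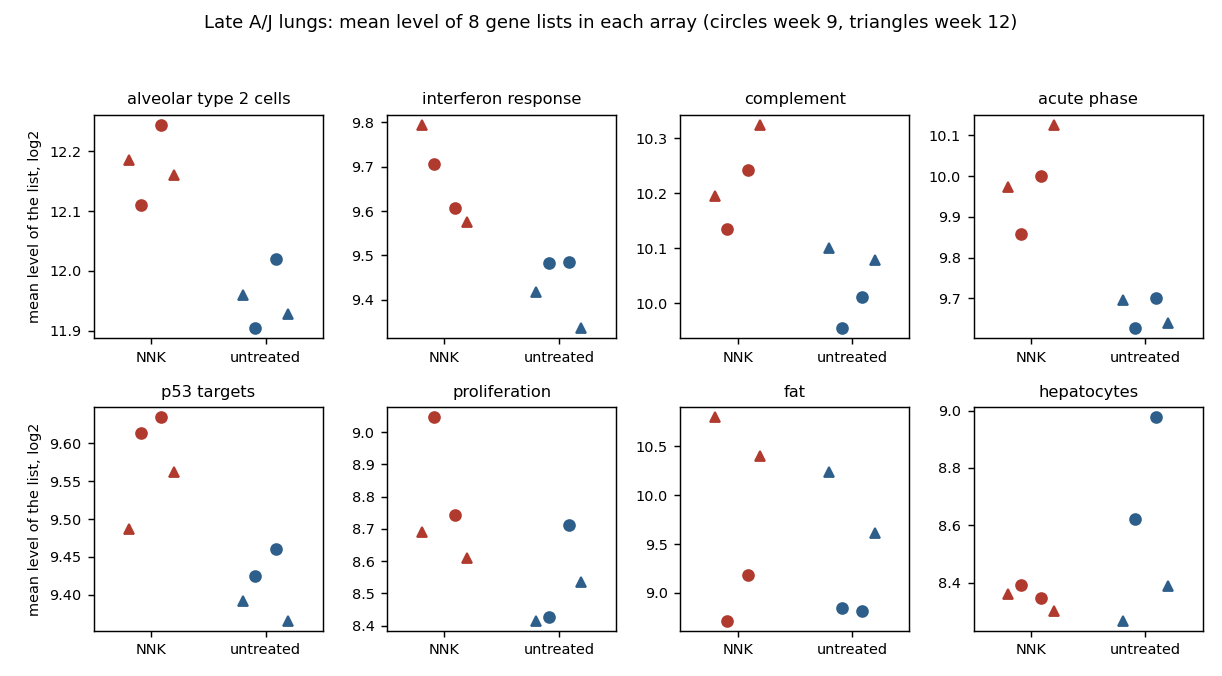
Mean level of 8 gene lists in each late A/J array, in log2(intensity + 16), with NNK lungs on the left and untreated lungs on the right; circles are week 9 and triangles week 12. The type 2, interferon, complement, acute-phase and p53 lists separate the 4 NNK arrays from the 4 untreated arrays. Lists not shown here do so too, among them NRF2 targets, cholesterol synthesis and fibroblast and matrix genes. The proliferation and fat lists overlap, and the hepatocyte list is highest in the 2 untreated lungs of week 9. The fat list follows the week, with 14 of its 15 genes higher with NNK.

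Of the p53 targets, Psrc1 and Phlda3 were still raised, with smaller changes than at weeks 3 and 6. Psrc1, a microtubule-binding p53 target, read 8.72 and 8.63 at week 9 and 8.50 and 8.63 at week 12 in NNK lungs, against 7.83 and 8.21 at week 9 and 7.89 and 8.15 at week 12 in untreated lungs. All NNK values stood above all untreated ones, and it rose by 0.60 ± 0.0916 (adjusted p 0.0377), compared with 1.19 ± 0.124 at weeks 3 and 6. Phlda3, a p53-induced inhibitor of Akt, rose by 0.355 ± 0.0537 (adjusted p 0.0376), compared with 0.682 ± 0.0666 early. Psrc1 was called in 1 of the 8 fits with an array left out, and Phlda3 in none. Of 33 p53 targets tested, these 2 were called late, and Sesn2, a stress-induced sestrin, changed by 0.382 (adjusted p 0.0964) and Ccng1, cyclin G1, by 0.263 (0.121). The list had 29 genes higher, 17 of them at an unadjusted p under 0.05. Its median was 0.161 late and 0.217 early. In 10 of the 33 genes the late change was above the early one, against 6669 of all 14953 genes tested. The difference between late and early was called for none of the 33. It was -0.586 ± 0.16 for Psrc1 (adjusted p 0.944) and -0.328 ± 0.0846 for Phlda3 (adjusted p 0.875). Of 30 proliferation genes, all were higher and none called, with a median of 0.227: Cdk1, the mitotic kinase, changed by 0.642 (adjusted p 0.0894) and Top2a, topoisomerase II alpha, by 0.463 (0.143).

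Growth-signal and stress genes completed the larger rises. Phlda1, a target of growth factor signalling, rose by 0.499 ± 0.0609 (adjusted p 0.0189), the one called among 25 immediate early and MAPK output genes, of which 23 were higher (median 0.191). In the same list Atf3, Fosb, Fos and Egr1, transcription factors induced within minutes of a stimulus, changed by 1.02, 0.761, 0.696 and 0.611, with adjusted p of 0.188 to 0.304. Their early changes were -0.804, -0.779, -0.916 and -0.527, each lower at week 3 than at week 6 (for Atf3, -1.99 and 0.382). Hspa1a, the inducible heat shock protein 70, read 11.23, 11.62, 11.76 and 11.68 in NNK lungs, against 10.59, 10.36, 9.75 and 10.51 in untreated lungs, and rose by 1.27 ± 0.184 (adjusted p 0.0315). Hspa1b is nearly identical to it, and the array may not separate the pair. Over the 16 A/J arrays of weeks 3 to 12, Hspa1a ranged in NNK lungs from 9.34 to 11.90, wider than the gap seen late, and it was not called in the fit of all 36 arrays (adjusted p 0.126). Ptgs2, the inducible cyclooxygenase, rose by 0.693 ± 0.0862 (adjusted p 0.0201), and Arg2, the mitochondrial arginase, by 0.774 ± 0.109 (0.0315). Aoc1, the diamine oxidase that breaks down histamine, read 9.79 and 9.96, then 10.19 and 10.14 in NNK lungs of weeks 9 and 12, against 8.86 and 8.86, then 9.22 and 9.52 in untreated lungs, a rise of 0.905 ± 0.0801 (adjusted p 0.00326). Mt2, a metallothionein, rose by 0.676 ± 0.108 (adjusted p 0.0434) and its partner Mt1 changed by 0.469 (0.0707), beside a median of 0.13 for 22 NRF2 target genes. Ros1, a receptor tyrosine kinase, rose by 0.613 ± 0.0831 (adjusted p 0.0278). Among 20 genes listed for lung tumour tissue, Ros1 and Lcn2 rose and 10 were higher, with a median of 0.0235.

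The remaining rises were of mixed function. BC023105, an uncharacterised gene, read 9.46, 8.91, 9.72 and 9.93 in NNK lungs, against 8.38, 8.29, 8.39 and 8.14 in untreated lungs, and rose by 1.20 ± 0.162, or 2.3-fold (adjusted p 0.0278). H1f3, a linker histone, rose by 0.687 ± 0.09 (adjusted p 0.0248), and its groups were the ones that overlapped: 9.21, 9.27, 8.45 and 8.73 in NNK lungs, against 8.46, 8.37, 8.17 and 7.89 in untreated lungs. Within each week its NNK arrays were above its untreated arrays. Membrane transport and uptake was represented by Lrp2 (megalin, an endocytic receptor) at 0.492, Slc15a2 (a peptide transporter) at 0.454 and Atp6v0a4 (a proton pump subunit) at 0.447. Veph1, at 0.388, Lgals3bp (a galectin-binding glycoprotein) at 0.363, Piwil4 (a Piwi-family protein) at 0.366, Nrn1 (neuritin) at 0.396, Ckmt1 (mitochondrial creatine kinase) at 0.342 and Susd4 (a complement regulator) at 0.339 were among the smaller rises. Tlcd4, St8sia6 (a sialyltransferase), Erich2, Arfgef3, Marchf9 and Stk32a rose by 0.339 to 0.541. Of the 46 calls, 9 were called in none of the fits with an array left out: Klk13, Lgals3bp, Marchf9, Mfsd4a, Mt2, Nrn1, Phlda3, Stk32a and Susd4.

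The one fall was Mfsd4a, a membrane transporter of the major facilitator family. It read 8.38, 8.39, 8.51 and 8.60 in NNK lungs, against 8.66, 8.84, 8.87 and 8.98 in untreated lungs, and fell by 0.368 (SE 0.0581, adjusted p 0.0416); no fit with an array left out called it. The next 9 genes by p did not pass, with changes between -0.467 and -0.277 and adjusted p of 0.0625 to 0.0917. They included Aox3, an aldehyde oxidase that read 11.00 ± 0.24 in NNK lungs and 11.41 ± 0.09 in untreated lungs, Sphk1, a sphingosine kinase, at -0.302, and Erbb4, a neuregulin receptor, at -0.303.

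What persisted and what appeared late was read from the same genes at weeks 3 and 6, in arrays the late contrast did not use. The early contrast called 11 rises (0.0736% of the genes tested) and no fall. At an unadjusted p under 0.05, 916 genes were higher early and 363 lower. Without each early array the count was 0 and 1 (NNK, week 3), 2 and 0 (NNK, week 6), 4 and 94 (untreated, week 3) and 0 and 1 (untreated, week 6). Of the 46 late calls 5 (10.9%) were also called early, which is 45.5% of the early calls: Retnla, Psrc1, Phlda3, Plcd4 and Cxcl17. Of all 14953 genes tested, 8754 were above 0 early, 916 of these at an unadjusted p under 0.05. The late change was above the early one in 6669 of the 14953. Of the 45 late rises, 42 were above 0 early and 26 of these at an unadjusted p under 0.05, and 37 were larger late than early. Their median change was 0.291 at weeks 3 and 6, 0.54 at week 9 and 0.545 at week 12. The late rises were chosen for their late size, so their smaller early size is given as a description. Retnla read 12.31, 12.11, 12.44 and 12.13 in NNK lungs of weeks 3 and 6, against 10.52, 10.75, 10.21 and 9.85 in untreated lungs, an early rise of 1.92 ± 0.156. Each late NNK array (11.39 to 11.81) lay below each early one, and the late change minus the early one was -0.17 ± 0.188. Ltf and Muc4 had early changes of 1.28 (adjusted p 0.0959) and 0.502 (0.0959). Plcd4, a phospholipase C, rose by 0.541 ± 0.0735 late (adjusted p 0.0278) and by 1.14 ± 0.136 early (0.0262). The 6 early calls that did not pass late were Ccng1, Chia1, Dglucy, Gsto1, Prrg4 and Rps27l.

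Other late rises were small at weeks 3 and 6, or differed between those weeks. Meg3, a maternally expressed non-coding RNA of an imprinted locus, read 9.15 and 9.10 at week 9 and 9.76 and 9.83 at week 12 in NNK lungs, against 8.67 and 8.37 at week 9 and 8.73 at week 12 in both untreated lungs. It rose by 0.84 ± 0.101 late (adjusted p 0.0186), while its NNK lungs of weeks 3 and 6 read 8.54 to 8.83, against 8.36 to 8.87 in untreated lungs. The difference between its late and early changes was 0.832 ± 0.134 (adjusted p 0.0819). Lcn2 changed early by 0.263 ± 0.197. For Ccl3 the early change of 0.106 ± 0.32 averaged opposite weeks, -0.62 at week 3 and 0.832 at week 6, the second near its late rise of 1.04. The early averages of Hspa1a and H1f3 did so too, with -1.73 and -1.23 at week 3 and 0.395 and 0.727 at week 6. The late-minus-early adjusted p was 1 for Ccl3 and for Lcn2. No late rise had a called difference from its early change. The 6 genes called in that difference (0.0401%), Lor, Krt1, Hrnr, Krt10, Crct1 and Lce1e, are cornified skin genes: Lor read 12.74 and 13.59 in the untreated lungs of week 6 and 6.82 to 7.40 in the other 14 A/J lungs of weeks 3 to 12. That count was 16 without the first untreated array of week 3 and 10 without the first untreated array of week 6 or of week 9, and 5 to 8 without the others. With week 3 alone as the early time no gene was called in limma, with 837 at an unadjusted p under 0.05.

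**Figure D3:**
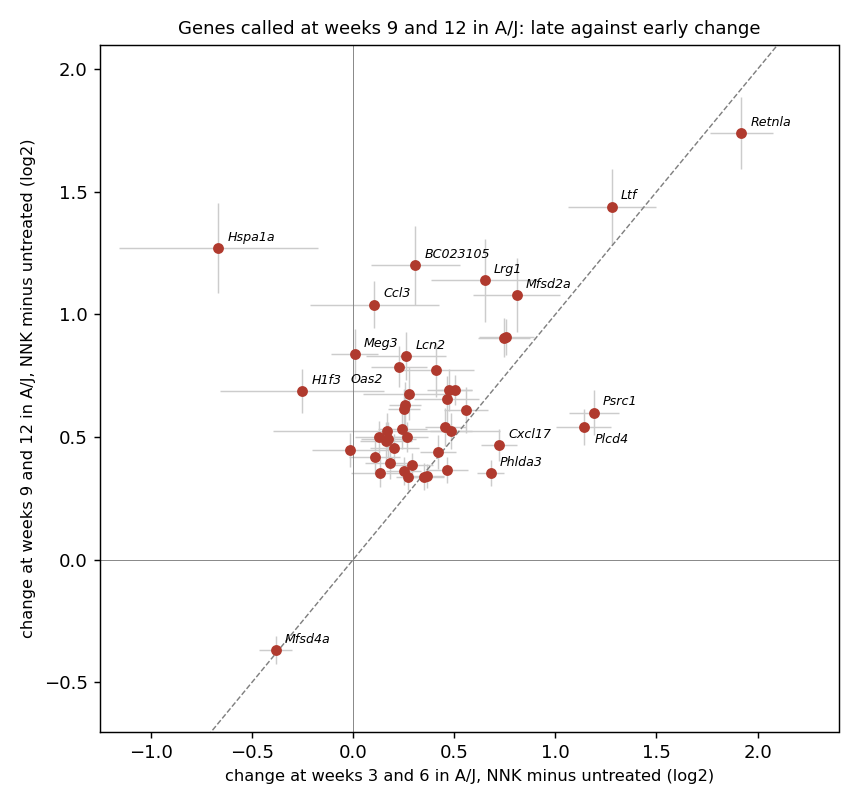
Change of the 46 late calls at weeks 9 and 12 (vertical) against weeks 3 and 6 (horizontal) in A/J lungs, each as NNK minus untreated in log2 units with its SE; the dashed line marks equal change. Retnla and Ltf are high at both times, Psrc1, Plcd4, Cxcl17 and Phlda3 lie below the line, and Meg3, Ccl3, Hspa1a and H1f3 are high on the late axis with early changes between -0.665 and 0.106; the early values of Ccl3, Hspa1a and H1f3 average a lower week 3 and a higher week 6.

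Few changes were called in a single week. Week 9 alone had 6 rises (0.0401%) and 1 fall (0.00669%), and week 12 alone had 3 rises (0.0201%), in a fit of the 16 A/J arrays of weeks 3 to 12. Retnla rose in both weeks, by 1.49 (adjusted p 0.0244) and 2.0 (0.00184). Aoc1, Muc4 and Fetub, a cystatin-family protease inhibitor, rose at week 9, by 1.01, 0.735 and 0.805, while Meg3 and Klk13, a kallikrein protease, rose at week 12, by 1.07 and 0.838. At week 9 Alb fell by 2.55 on the log2 scale (adjusted p 0.032), beside the liver transcripts of the 2 untreated arrays given above, whose part was not tested. Leaving out any 1 of the 16 arrays moved the week 9 count by over 1.5 times, to between 0 and 183 (the highest without the first untreated array of week 9), except the first NNK array of week 9 (6) and the untreated arrays of week 3 (8 and 8). The week 12 count was 1 and 9 without the NNK arrays of week 12, 0 without the second untreated array of week 12, and 5 without either untreated array of week 3. With the spread from weeks 9 and 12 alone, a setting chosen after seeing the data, week 9 had 0 calls and week 12 had 2. The direct difference, week 12 minus week 9, was called for 1 gene (0.00669%): Mir181b-2, a microRNA locus, read 7.83 and 7.79 in NNK lungs of week 9 and 7.28 and 7.47 of week 12, against 7.24 and 7.10 in untreated lungs of week 9 and 7.89 and 7.82 of week 12, a difference of -1.12 (adjusted p 0.0422). The probe set covers the locus, so the mature microRNA was not measured.

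In C3H lungs of the same weeks the late A/J rises were mostly small. The C3H contrast called 1 rise (0.00669%), Psrc1, which read 8.70 and 8.44, then 8.45 and 8.45 in NNK lungs of weeks 9 and 12, against 7.88 and 7.86, then 7.98 and 7.87 in untreated lungs. Its C3H rise of 0.614 ± 0.0648 (adjusted p 0.0403) stood beside 0.60 in A/J, a strain difference of -0.0144 ± 0.122 (adjusted p 0.983). Of all 14953 genes tested, 7592 were above 0 in C3H, 360 of them at an unadjusted p under 0.05. The change was more positive in A/J than in C3H for 8011 of the 14953. Of the 45 A/J rises, 36 were above 0 in C3H, 10 of them at an unadjusted p under 0.05, and 44 were larger in A/J. Their median was 0.541 in A/J and 0.0959 in C3H, where the A/J value is that of genes chosen in A/J. Ltf changed by 1.07 ± 0.227 in C3H (adjusted p 0.515) and Aoc1 by 0.526 ± 0.0981 (0.502), while Retnla changed by 0.257 ± 0.279 and Ccl3 by -0.439 ± 0.269. For Retnla, C3H lungs read 9.93 to 10.78 with NNK, against 9.50 to 9.88 in 3 untreated arrays and 10.95 in the other.

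The difference between strains was called for 8 genes (0.0535%), each with the more positive change in A/J: Ccl8, Lcn2, Meg3, C6, Klk13, Hdc, Muc4 and Mmrn1, the first 7 being late A/J rises. Mmrn1 changed by 0.25 in A/J (adjusted p 0.178) and by -0.239 in C3H, and C6 by 0.534 and -0.176. For Ccl8 the strain difference was 0.83 ± 0.098 (adjusted p 0.0223): its C3H lungs read 7.43 to 7.70 with NNK, against 7.29 to 7.68 untreated. Lcn2 differed by 0.85 ± 0.128 (adjusted p 0.0481), with C3H levels of 12.34 to 12.54 in NNK lungs, against 12.27 to 12.58 in untreated lungs. The untreated C3H level of Lcn2 thus lay within the range of the NNK-treated A/J lungs (12.19 to 12.70), above the untreated A/J lungs (11.52 to 11.81). For Klk13, C3H lungs read 8.71 to 9.17 with NNK, against 8.87 to 9.14 untreated, and A/J lungs 8.91 to 9.02 with NNK, against 8.04 to 8.53 untreated. The untreated C3H range of Klk13 thus spanned that of the NNK-treated A/J lungs and lay above the untreated A/J lungs. Whether strain variants under a probe affect these levels or changes was not tested. The count moved with single arrays. Without each A/J array it was 22 and 2 (NNK, week 9), 0 and 3 (NNK, week 12), 19 and 13 (untreated, week 9) and 2 and 1 (untreated, week 12), and without each C3H array 1 and 0 (NNK, week 9), 0 and 0 (NNK, week 12), 0 and 2 (untreated, week 9) and 0 and 5 (untreated, week 12).

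**Figure D4:**
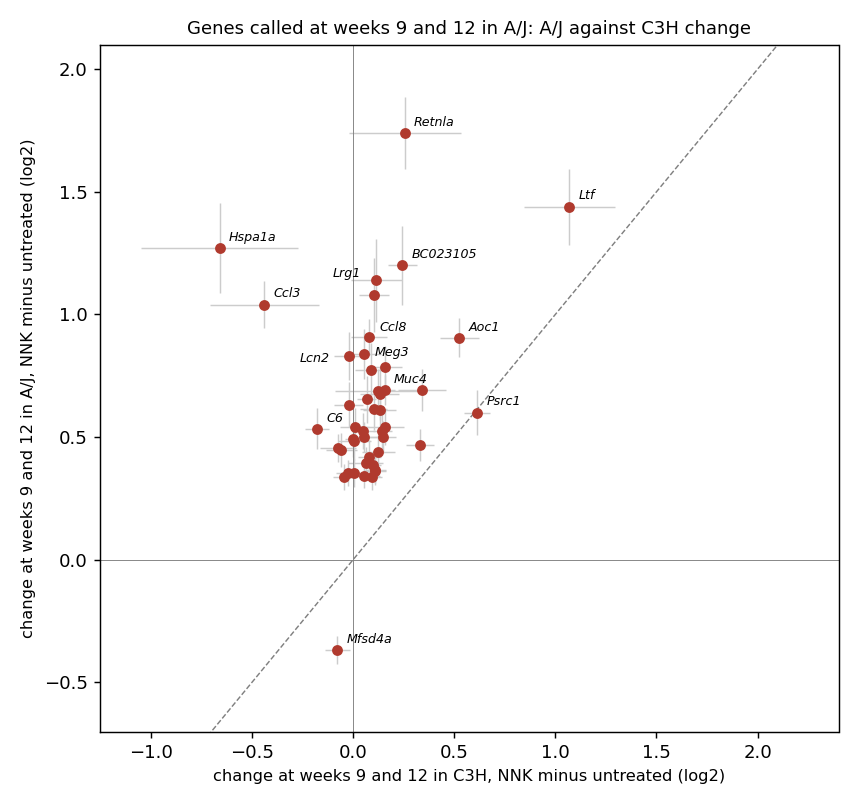
Change of the 46 late A/J calls in A/J (vertical) against C3H (horizontal) lungs of weeks 9 and 12, each as NNK minus untreated in log2 units with its SE; the dashed line marks equal change. Psrc1 lies at the line, Ltf and Aoc1 are shifted towards it, and most of the others, Meg3, Lcn2 and Ccl8 among them, lie near 0 in C3H.

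The gene lists were set side by side by time and strain. The type 2 list had a median of 0.167 late, 0.062 early and -0.0362 in C3H. The change was more positive in A/J than in C3H for 28 of its 29 genes, against 8011 of all 14953 genes tested. Fatty acid synthesis stood at 0.241, 0.0838 and -0.000468, and the interferon response at 0.224, 0.0816 and 0.0794. The p53 median was 0.161, 0.217 and 0.0648, and that of ciliated cells 0.138, 0.191 and 0.0432. The proliferation median was 0.227, 0.302 and 0.285, with all 30 genes above 0 in each contrast. Of all 14953 genes tested, 8008 were above 0 late, 8754 early and 7592 in C3H. The early proliferation median was not shared by the weeks: it was -0.0485 at week 3 and 0.636 at week 6. The weeks were opposite also for the acute-phase list (-0.133 and 0.416), the complement list (-0.213 and 0.426), the alternatively activated macrophages (-0.136 and 0.407), the neutrophils (-0.183 and 0.813) and, the other way round, fatty acid synthesis (0.177 and -0.064). At week 6 alone the acute-phase and complement medians were thus above their late values of 0.271 and 0.192. No list was tested as a group, and no gene of the type 2, fatty acid, interferon, p53, ciliated or proliferation lists was called in the strain difference.

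**Figure D5:**
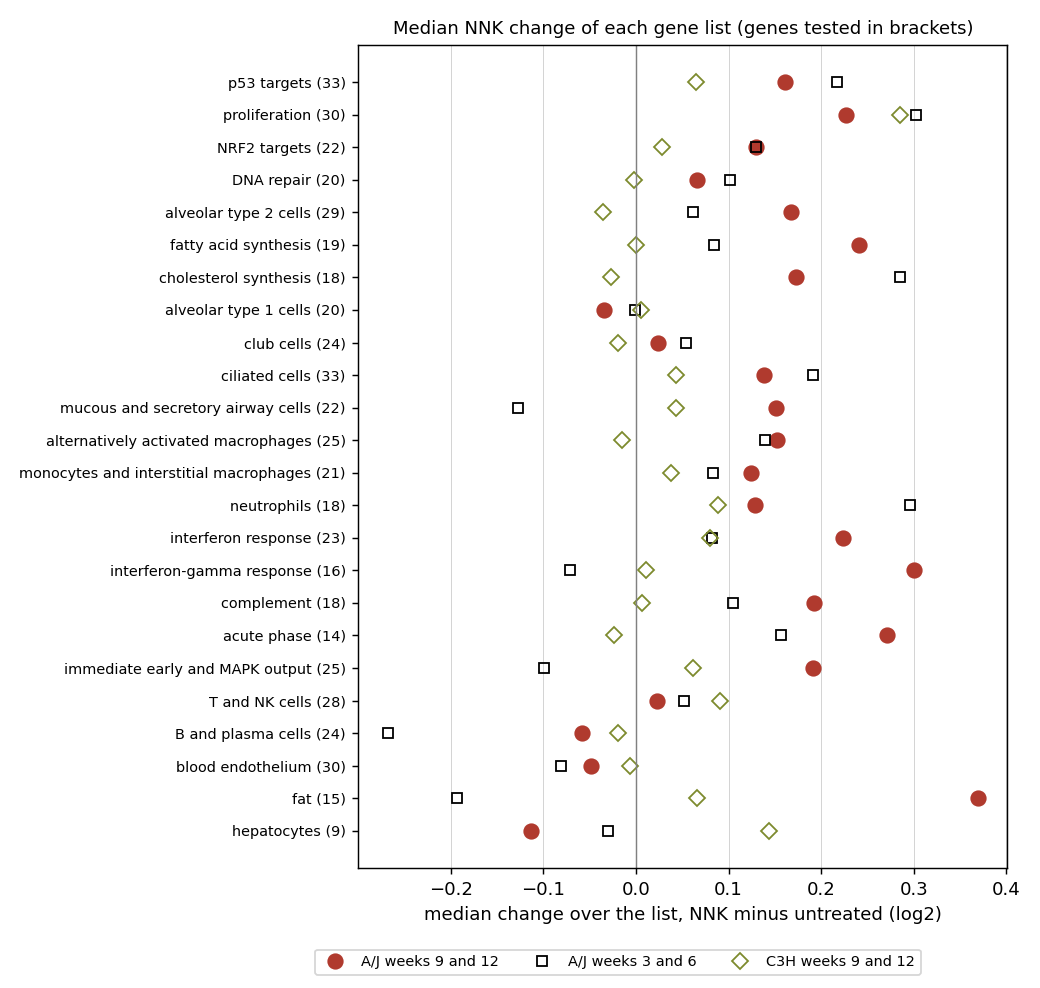
Median change over each of 24 gene lists, NNK minus untreated in log2 units, with the number of genes tested in brackets; filled circles are late A/J, open squares early A/J and open diamonds late C3H. The type 2, fatty acid, interferon and acute-phase medians are larger in late A/J than in the other contrasts, the p53, cholesterol and ciliated medians are larger in early A/J, and the proliferation medians lie between 0.227 and 0.302 in all 3. The early medians average weeks 3 and 6, which were opposite for the proliferation and acute-phase lists.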

How the data were processed

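Whole-lung total RNA of 36 mouse samples was hybridised to Affymetrix mouse gene arrays. The deposited values are linear intensities; the tools named in the submitters' processing notes are PLIER and Affymetrix Expression Console, with versions and settings not given in the sources used here. Low intensities vary widely on a log scale, so 16 was added before log2, and all 36 arrays were quantile-normalized. Of 35556 probe sets, 21789 had 1 gene symbol, 1621 several and 12146 none in the probe table; of the 13767 others 7814 were tested and none was called. The probe set with the highest mean stood for each of 19938 genes, and 14953 with a mean at or above the 25th percentile were tested. R 4.3.3 and limma 3.58.1 were used, with Benjamini-Hochberg adjustment over all genes tested and a threshold of 0.05. The late, early and C3H contrasts had week as a block (8 arrays each); single weeks and late minus early came from 16 A/J arrays, and the strain difference from 16 A/J and C3H arrays. The code was tested on simulated data. Named by rule were the 15 largest rises, the fall and the next 9 by p, leading list members and the largest calls of other contrasts; other genes were picked after their values were seen. Members and lists were chosen with earlier results of these data known. Alternatives covered scaling, pseudocount, filter, variance model, array set, blocks and single arrays.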

Additional observations from a re-analysis of the deposited data

Results flagged for a closer look

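In 7 of 162 groups of 4 arrays tested, 1 array stood far from the other 3; chance alone gives about 1 in 20. Ccl3 read 10.19 in the first NNK array of week 12, with the nearest at 10.32, and still lay above every untreated array. Arg2 read 8.76 in that array (nearest 8.59), and Atp6v0a4, a proton pump subunit, 8.16 (nearest 8.29). In the second NNK array of week 9, Il33 read 11.15 (nearest 10.64) and Ros1 8.28 (nearest 8.47). Mt2 read 11.72 in the first NNK array of week 9 (nearest 12.19). Meg3 read 8.37 in the second untreated array of week 9 (nearest 8.67).

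Effects that differed between times or strains by a test of the difference itself were these. Mir181b-2 differed by -1.12 between the changes of weeks 12 and 9. Lor, Krt1, Hrnr and Krt10 differed between late and early by 3.15, 2.83, 2.63 and 1.97, with the skin transcripts in the 2 untreated lungs of week 6. Between late A/J and late C3H, Lcn2 differed by 0.85, Ccl8 by 0.83, Meg3 by 0.79, C6 by 0.71, Klk13 by 0.65, Hdc by 0.59 and Muc4 by 0.54.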

How the results depend on the processing

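All 46 late calls kept their direction in every alternative run, but counts of calls moved. Late calls and rises numbered 46 and 45 as reported; they were 8 and 8 with no filter, 9 and 9 with no week block, 23 and 23 with the replicate block, 102 and 90 with trended robust variances, and 268 and 201 with all 36 arrays. They stayed within 1.5 times (36 to 61 and 36 to 59) on the deposited scale, with quantile normalization over the fit's arrays, a pseudocount of 1, a filter at the 50th percentile, array weights and group means per week. Without single arrays the ranges were 5 to 29 (late), 5 to 28 (rises), 0 to 183 (week 9), 0 to 9 (week 12), 0 to 1 (week 12 minus week 9), 5 to 16 (late minus early), 0 to 94 (early), 0 to 1 (C3H) and 0 to 22 (strain difference). Week 9, with 7 calls, had 3 with no filter, 2 with trended variances, 3 with array weights, 231 with 36 arrays, 1 with the replicate block and 0 with the spread of weeks 9 and 12 alone. Week 12, with 3, had 5 with the 50th percentile, 6 trended, 8 weighted, 11 with 36 arrays and 2 with its own spread. Week 12 minus week 9, with 1, had 0 on the deposited scale, with no filter, the 50th percentile, trended variances, array weights, the replicate block and the spread of weeks 9 and 12. Early, with 11, had 18 on the deposited scale, 4 with no filter, 38 with the 50th percentile, 60 trended, 60 weighted, 488 with 36 arrays, 7 with the replicate block and 6 with week 3 alone. Late minus early, with 6, had 1 with the 50th percentile and 0 with week 3. C3H, with 1, had 0 with no filter, the 50th percentile and the replicate block. The strain difference, with 8, had 3 on the deposited scale, 1 with a pseudocount of 1, 0 with no filter, 1 weighted, and 4 each with 36 arrays and the replicate block. The causes were not tested, beyond fewer or more genes and arrays. Whether the replicate numbers pair the samples cannot be settled from 2 arrays per group. Same-numbered deviations correlated in A/J at 0.222 (week 3), -0.0408 (week 6), -0.0453 (week 9) and -0.201 (week 12). In C3H they correlated at 0.152 (week 9) and 0.0616 (week 12). With the replicate block, 20 of the 46 calls remained. With 4 arrays a side, changes below about the smallest called rise (0.339) were not resolved for most genes, and dim probe sets were left out by the filter.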
